A study of Saccharomyces cerevisiae with 51 samples.

Results

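Deletion mutants of 19 genes that act in mating after the pheromone signal has been received, or that are themselves transcribed in response to it, were followed through a sort for cells without reporter fluorescence. They were chosen by name from a table of 6128 deletion mutants. The agglutinin and adhesion genes were *AGA1* (YNR044W), *AGA2* (YGL032C), *SAG1* (YJR004C), and *FIG2* (YCR089W). The cell fusion genes were *FUS2* (YMR232W) and *PRM1* (YNL279W). Genes of karyogamy, the fusion of nuclei in the zygote, were *KAR5* (YMR065W), *CIK1* (YMR198W), and *PRM3* (YPL192C), with *PRM2* (YIL037C) placed beside them. *KCH1* (YJR054W) and its relative *PRM6* (YML047C) belong to potassium uptake, and *PRM8* (YGL053W) and *PRM9* (YAR031W) to the DUP240 family of membrane proteins. *ASG7* (YJL170C) is expressed in a cells. The others were *PRM4* (YPL156C), *PRM5* (YIL117C), *PRM7* (YDL039C), and *PRM10* (YJL108C), known as pheromone-regulated membrane protein genes. The members lie on 12 chromosome arms, and 2 of them, *PRM2* and *PRM5*, lie on the left arm of chromosome IX.

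The pool was the *MAT*a yeast knockout (YKO) library, haploid strains that each lack a single gene and carry a pair of barcodes, UPTAG and DNTAG. Every strain was transformed with a *LEU2*-marked cassette in which the *FUS1* promoter drives GFP. The cassette is designed to replace *BAR1*, the protease that degrades α-factor, so all groups, controls included, were built to lack Bar1. The paper found integration at *BAR1* in most but not all colonies tested, and a small share of cells without the marker. In Gfp- cells were sorted for absence of GFP after 2 hr in 10 nM α-factor, and In presort is the treated library before sorting. Un Gfp- cells were sorted in the same way from the library in vegetative growth, and Un presort is that library before sorting. Sorted cells were grown to saturation before DNA was extracted, so growth after the sort is part of each sorted count. The paper describes this step for sorted cells only, so it cannot be told apart from the sort in a comparison with presort. The study lists the *kch1*Δ strain of this library as a diploid, which limits it as a model of the haploid deletion.

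In the mating response, α-factor binds a receptor on *MAT*a cells and a MAP kinase cascade releases the transcription factor Ste12, which induces *FUS1* and most of the genes studied here. The agglutinins then stick partners together, Fus2 and Prm1 act where cell walls and plasma membranes join, and Kar5, Prm3, and Cik1 bring the nuclei together. A deletion that blocks the cascade leaves a cell without reporter fluorescence. The comparison of a sorted pool with its presort asks which deletion strains do so.

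Each group had 3 biological replicates, and the 12 libraries held 192483 to 13140634 reads. Replicate 3 of each sorted pool was the shallowest library of its group, with 302991 reads for In Gfp- and 192483 for Un Gfp-. The scale factors that align ordinary mutants between libraries (TMM factors) were 0.414 and 0.549 there, against 0.0849 to 0.126 in the other sorted libraries. UPTAG reads made up 11.2% to 80.3% of a library, so the summed reads of a strain seen through a single tag move with that share. By the labels, the instrument was a HiSeq 2000 for replicate 1 and a HiSeq 2500 for the others. Values are given as reads per 1000000 reads of the library (RPM), and fold changes are on the log2 scale after TMM normalization. Before TMM scaling, the median log2 fold change of all mutants tested was -5.32 for Un Gfp- and -6.17 for In Gfp-. After it, the medians were -0.54 and -0.69. For reference, strains known for low *FUS1* expression were looked up: the deletions of *STE50*, *STE20*, *STE4*, *STE11*, *STE7*, and *STE5*, which belong to the signalling pathway, and *sir1*Δ to *sir4*Δ, which lack silencing of the hidden mating-type loci. The deletions of *STE12* and *STE18*, which the paper also names as Gfp-, were not on this list. All 10 were called higher in both sorted pools, with a median log2 fold change of 9.22 in Un Gfp- and 9.33 in the In Gfp- pool. Of all mutants tested, 12.2% and 15.2% were called higher. The list was chosen with earlier results of these data known, so it is no independent check of the gate.

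Of the 19 mutants, 16 had at least 50 reads on average before sorting and were tested in both sorted pools. *aga1*Δ, which lacks the anchor subunit of a-agglutinin, had 1 read over the 12 libraries. *sag1*Δ, which lacks the α-agglutinin made by the opposite mating type, had 0 reads. *cik1*Δ, which lacks the partner of the kinesin Kar3, had 9 reads. These 3 strains had too few reads to be tested at this depth and nothing can be said of their reporter. Many other strains were missing too: 44.3% of the mutants in the table missed the minimum in the Un presort and 42% in the In presort. At the other end, *aga2*Δ and *kch1*Δ were among the most abundant strains of the library, at rank 16 and 18 of 6128 in the Un presort and rank 19 and 22 in the In presort. *prm2*Δ was the rarest tested member, at rank 3166 in the Un presort. Both tags were read in 13 of the 16 tested strains, where UPTAG gave 28.5% to 42.0% of presort reads. *fus2*Δ was read at 99.7% through UPTAG, *prm9*Δ through UPTAG alone, and *fig2*Δ through DNTAG alone.

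Of the 16 tested members, *prm2*Δ and *prm5*Δ were over-represented in the sorted pools after TMM scaling and stayed the 2 members called higher with and without α-factor. For *prm2*Δ this rested on its DNTAG. Among all mutants tested, 12.2% were called higher in Un Gfp- (417 of 3414) and 15.2% in the In Gfp- pool (540 of 3553), so 2 of 16 members is near that background in both. No member was called lower in Un Gfp-, against 5.27% of all mutants, and 2 members, *fus2*Δ and *prm8*Δ, were called lower in the In Gfp- pool, against 10.1%. A call means an adjusted p under 0.05 in edgeR, where the Benjamini-Hochberg step covered every tested mutant of the library. The members' median log2 fold change was -0.48 in Un Gfp- and -0.51 in the In Gfp- pool, beside -0.54 and -0.69 for all mutants tested. The 14 uncalled members in Un Gfp- lay between -2.68 and 1.01. Around the median of all mutants, 8 members lay above and 8 below in Un Gfp-, and 9 above and 7 below in the induced culture. Without the shallow replicate 3 of the sorted pool, the members called were 3 higher and 1 lower in Un Gfp- (575 higher and 366 lower of all mutants) and 2 higher and 4 lower in the induced culture (593 and 405).

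*PRM5* encodes a predicted membrane protein whose transcription answers to Ste12 and to the cell wall integrity pathway. *prm5*Δ had 256, 283, and 281 RPM in the Un Gfp- replicates, against 197, 190, and 171 RPM in the Un presort replicates. It had 265, 251, and 251 RPM in the In Gfp- pool, against 177, 174, and 141 RPM in In presort. By share of the library, every sorted replicate was above every presort replicate in both cultures. The mean was 273 ± 14.5 RPM in Un Gfp- and 186 ± 13.3 RPM in Un presort, and 256 ± 8.22 RPM in the In Gfp- pool and 164 ± 20.2 RPM in In presort (SD, n = 3 each). Relative to ordinary mutants, after TMM scaling, this was a log2 fold change of 5.55 ± 0.69 in Un Gfp- (edgeR, adjusted p = 0.000531) and 6.35 ± 0.88 in the In Gfp- pool (adjusted p = 3.25e-05), with SE as the error.

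Both barcodes of *prm5*Δ gave the same picture. UPTAG reads alone gave a log2 fold change of 5.00 ± 1.43 in Un Gfp- and 5.56 ± 0.62 in the In Gfp- pool, and DNTAG reads alone gave 5.65 ± 0.86 and 5.92 ± 0.96. All 4 passed the edgeR threshold, with adjusted p-values of 0.00572, 5.06e-05, 0.00293, and 0.000179 in that order. The strain was below the median of the 10 Ste and Sir deletions in both pools, though above *ste50*Δ, at 4.74, in the In Gfp- pool. Its rank among all mutants by log2 fold change was 139 of 3414 in Un Gfp- and 134 of 3553 in the In Gfp- pool, and *ste7*Δ, which lacks the MAP kinase kinase, was at 9.40 and 9.43. When replicate 1 of both groups was left out, 0 of 3414 mutants were called in Un Gfp-, and likewise without replicate 2. *prm5*Δ was then at 5.31 and 5.33 (adjusted p = 0.0970 and 0.0621), within a range between 2.68e-17 and 0.310 over its 16 alternative settings.

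*PRM2* encodes a predicted membrane protein induced by pheromone through Ste12. *prm2*Δ had 40.1, 83.8, and 88.3 RPM in Un Gfp-, against 31.4, 26.9, and 26.1 RPM in Un presort. In the induced culture it had 71.2, 19.1, and 72.6 RPM in the In Gfp- pool, against 37.1, 29.3, and 31.0 RPM in In presort. Its share of the library in replicate 2 of In Gfp- was thus below every In presort replicate, while after TMM scaling all 3 sorted replicates were above them. The log2 fold change was 6.18 ± 0.58 in Un Gfp- (SE, edgeR, adjusted p = 0.000409) and 6.35 ± 0.83 in the In Gfp- pool (adjusted p = 1.97e-05), rank 113 of 3414 and 133 of 3553. Without replicate 1 it was at 6.36 in Un Gfp- and without replicate 2 at 5.61, with the same adjusted p-values as *prm5*Δ and so no call. In the induced culture it kept its call at 5.14 without In Gfp- replicate 1 (adjusted p = 0.000882). Over 15 alternative settings the adjusted p ranged up to 0.235 in Un Gfp- and 0.219 in the In Gfp- pool.

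The barcodes of *prm2*Δ disagreed. Its DNTAG had 238, 113, and 17 reads in Un Gfp-, against 98, 16, and 57 reads in Un presort. Its UPTAG had 0 reads in all 3 Un Gfp- replicates, against 76, 33, and 8 reads in Un presort. The induced culture showed the same split, with 935, 26, and 21 DNTAG reads in the In Gfp- pool, against 292, 142, and 4 in In presort. There its UPTAG had 0, 0, and 1 read in the In Gfp- pool, against 96, 28, and 13 in In presort. DNTAG reads alone gave a log2 fold change of 6.44 ± 0.67 in Un Gfp- and 6.94 ± 0.85 in the In Gfp- pool (SE, edgeR, adjusted p = 0.00265 and 2.39e-05). With UPTAG reads alone, no enrichment was seen. The UPTAG share was at least 17.2-fold lower in Un Gfp- than in Un presort, set by a floor of 3 reads over the group, and the median mutant by the same count was 51.6-fold lower, so UPTAG reads cannot set the strain apart from an ordinary mutant. The call for *prm2*Δ therefore rests on 1 of its 2 barcodes, and whether each barcode was assigned to the right strain was not checked here.

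Such a split was rare among enriched strains. Of the 362 mutants called higher in Un Gfp- with a presort mean of at least 20 reads for each tag, 2 (0.552%), *prm2*Δ among them, had at most 1 read of one tag over the 3 sorted replicates. In the In Gfp- pool there were 18 of 462 (3.90%). In 16 of those 18 it was the UPTAG that was missing. This count was chosen after the values were seen.

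The position of both enriched strains is shared with many others. On the left arm of chromosome IX, 45 of the 108 other tested mutants (41.7%) were called higher in Un Gfp-, against 370 of 3304 mutants (11.2%) off that arm. In the In Gfp- pool there were 50 of 113 (44.2%) on the arm and 488 of 3438 (14.2%) off it. Within 5 positions of *PRM2* by systematic name, 2 of 3 tested neighbours were called higher in Un Gfp- and 2 of 4 in the In Gfp- pool. Within 5 of *PRM5* there were 3 of 8 and 4 of 8. Of the 14 tested members elsewhere in the genome, 0 were called higher, and their neighbours were called higher at 15.4% (14 of 91) in Un Gfp- and 18.6% (18 of 97) in the In Gfp- pool. The study lists several deletions of this arm, such as *tir3*Δ, *pkp1*Δ, and *mnt3*Δ, as enriched in its In Gfp- pool but wild-type when tested singly. It lists *imp2*Δ as Gfp- when tested singly and wild-type when newly made, and *ssm4*Δ as lower in basal expression both times. Neither *prm2*Δ nor *prm5*Δ is on that list, and enrichment alone does not show a loss of reporter. The part of chromosomal position in the enrichment of *prm2*Δ and *prm5*Δ was not tested.

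*FUS2* encodes a protein of the projection tip that is needed for efficient cell fusion. *fus2*Δ had 0 reads in all 3 In Gfp- replicates, against 1145, 339, and 75 reads in In presort. With a floor of 3 reads over the group's 14804620 reads, its share was at least 458-fold lower in the In Gfp- pool than in In presort. The median mutant was 108-fold lower by the same count. A separate edgeR fit of the TMM-scaled counts called *fus2*Δ lower (adjusted p = 0.00581). Counted in UPTAG reads alone, the tag through which it is seen, it was at least 606-fold lower and the median mutant 208.5-fold lower. Of 1072 mutants with at least as many UPTAG reads in In presort, 11 (1.03%) had 0 in the In Gfp- pool. In the uninduced culture *fus2*Δ had 4, 0, and 0 reads in Un Gfp-, against 817, 362, and 135 in Un presort, a log2 fold change of -2.68 ± 0.97 (SE) that missed the threshold (edgeR, adjusted p = 0.0818). That value rests on replicate 1 of Un Gfp-, which gave all 4 sorted reads; without it the fitted value was -11.04 against a group at 0 (adjusted p = 0.221), which is no bound. The replicates of sorted and presort did not overlap in either culture. Without replicate 1 of In Gfp-, which held most of that group's reads, the adjusted p for the induced culture was 0.231, and without replicate 3 of both groups it was 0.0665. It ranged between 0.000102 and 0.719 over 16 alternative settings and passed in 12 of them. Those 12 include library totals, with 3330 of 3553 mutants called lower, and UPTAG alone, with 1610 of 3455. In the uninduced culture the strain was called lower without Un presort replicate 3, at -3.03 (adjusted p = 0.0130), and in 3 of 16 settings in all, with adjusted p-values between 0.000132 and 0.893. The others were library totals, with 3199 of 3414 mutants called lower, and UPTAG alone, with 242 of 3316.

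The other cell fusion gene, *PRM1*, encodes a multispanning protein that promotes fusion of the plasma membranes. *prm1*Δ averaged 19.1 ± 15.2 RPM in Un Gfp- and 480 ± 19.8 RPM in Un presort (SD, n = 3 each), and its log2 fold change of -0.22 ± 0.35 (SE) was not called. In the induced culture it was at 0.17 ± 0.55.

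*PRM8* and *PRM9* both belong to the DUP240 family. *prm8*Δ had 1.14, 0.735, and 6.60 RPM in the In Gfp- pool, against 249, 249, and 289 RPM in In presort. All 3 sorted replicates were below the presort replicates also after TMM scaling, with a log2 fold change of -1.66 ± 0.58 (SE, edgeR, adjusted p = 0.0457). This call sat at the threshold and was kept in 8 of 16 alternative settings, over which the adjusted p ranged between 9.28e-05 and 0.370. Those 8 include library totals, which gave the lowest adjusted p and called 3330 of 3553 mutants lower. They also include UPTAG alone, which called 1610 of 3455 lower. Leaving out In Gfp- replicate 1, or any 1 of the In presort replicates, ended it, with values between -1.84 and -1.62. A fit with replicate number as a block also ended it, at -1.72 (edgeR, adjusted p = 0.370), and called 12 of 3553 mutants lower. In Un Gfp- the strain had 2.36, 1.48, and 20.8 RPM, against 240, 239, and 223 RPM in Un presort, a log2 fold change of -1.05 ± 0.48 with adjusted p = 0.148. *prm9*Δ, read through UPTAG alone, was at -1.65 ± 0.74 in Un Gfp- and -1.70 ± 0.72 in the In Gfp- pool and passed the edgeR threshold in neither (adjusted p = 0.138 and 0.0883). Of its 21 reads in Un Gfp-, 20 came from replicate 1, and without that library it was at -3.91 (adjusted p = 0.124). Without replicate 1 of both groups it was at -4.02, and without replicate 2 of both at -0.91. Over 15 alternative settings in Un Gfp- the adjusted p ranged between 0.000194 and 0.520. The lowest came from library totals, at -7.06, where 3199 of 3414 mutants were called lower. A fit of UPTAG reads alone put *prm9*Δ at -1.17 ± 0.75 in Un Gfp- (SE, edgeR, adjusted p = 0.260). In the In Gfp- pool UPTAG alone put it at -2.79 ± 0.75 and called it lower (adjusted p = 0.0103). In that fit the median of all mutants was -2.40, and 1610 of 3455 were called lower.

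Among the karyogamy mutants, *kar5*Δ lacks a nuclear envelope protein required for nuclear fusion. It had 4.72, 13.4, and 20.8 RPM in Un Gfp-, against 120, 165, and 186 RPM in Un presort. After TMM scaling its sorted replicates lay above the presort ones, at 43.6, 106, and 37.9 scaled RPM against 24.4, 32.6, and 34.5. The log2 fold change of 1.01 ± 0.48 (SE) was not called by edgeR (adjusted p = 0.156), whereas DESeq2 called it higher, at 1.29 (adjusted p = 0.0419). Over 16 alternative settings the adjusted p ranged between 0.000438 and 0.727. The lowest came from library totals, where *kar5*Δ was called lower, at -3.96, with 3199 of 3414 mutants. In the induced culture *kar5*Δ had 1.37, 1.47, and 16.5 RPM in the In Gfp- pool, against 124, 175, and 161 RPM in In presort, at -0.25 ± 0.53. *PRM3* encodes another nuclear envelope protein of karyogamy. *prm3*Δ had 0.989, 0, and 3.30 RPM in the In Gfp- pool, against 124, 94.9, and 155 RPM in In presort, and was at -0.99 ± 0.59 (adjusted p = 0.204). In Un Gfp- it had 2.70, 0, and 20.8 RPM, against 144, 116, and 141 RPM in Un presort, at -0.34 ± 0.64.

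*KCH1* and *PRM6* encode related membrane proteins needed for potassium influx during the pheromone response. *kch1*Δ had 126, 128, and 135 RPM in Un Gfp-, against 2579, 1983, and 2171 RPM in Un presort. In the induced culture it had 5.48, 5.88, and 422 RPM in the In Gfp- pool, against 2744, 1805, and 2021 RPM in In presort. Replicate 3 of In Gfp- was thus far above its other replicates, and after TMM scaling, which lowers that library's gap for ordinary mutants, it was still 15.8-fold above the higher of them. Of the 115 mutants with at least 100 reads in that library, *kch1*Δ was the 1 mutant over 10-fold above both other replicates. The minimum was set on that same library, so this count cannot say how often ordinary mutants show such a gap. *aga2*Δ, close to it in abundance before sorting, was 3.88-fold above the higher of its other replicates there.

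That library decides the values of *kch1*Δ with α-factor. With all replicates its log2 fold change was 0.90 ± 0.56 in Un Gfp- and 0.14 ± 0.88 in the In Gfp- pool (SE), and neither was called by edgeR (adjusted p = 0.258 and 0.905). Without In Gfp- replicate 3 it was -2.32 in the In Gfp- pool and called lower (adjusted p = 0.00834). Without Un Gfp- replicate 3 it was 1.53 in Un Gfp- and called higher (adjusted p = 0.00263). Without replicate 3 of all groups, the difference of the induced and the uninduced enrichment was -3.86 on the log2 scale (adjusted p = 0.0443), against -0.81 ± 1.15 with all replicates (adjusted p = 0.898). Over the alternative settings of that difference the adjusted p ranged between 0.0443 and 1.00, and over the 16 of each sorted comparison between 0.00834 and 0.989 (induced) and between 0.000100 and 0.900 (uninduced). The 0.000100 came from library totals, where *kch1*Δ was called lower, at -4.11, with 3199 of 3414 mutants.

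*prm6*Δ had 2.82, 0.735, and 19.8 RPM in the In Gfp- pool, against 457, 518, and 478 RPM in In presort. Its sorted replicates were below the presort ones after scaling, with a log2 fold change of -1.31 ± 0.59 (SE) that missed the edgeR threshold (adjusted p = 0.103). It was called lower in 4 of 16 alternative settings, over which the adjusted p ranged between 0.00112 and 0.421. Among them were DNTAG alone, at -1.01 (adjusted p = 0.0383), and DESeq2, at -1.01 (adjusted p = 0.0272). UPTAG alone was another, at -4.04 (adjusted p = 0.00697), where the median of all mutants was -2.40 and 1610 of 3455 were called lower. The last was library totals, at -6.44, where 3330 of 3553 mutants were called lower. In Un Gfp- it had 5.40, 6.68, and 52.0 RPM, against 434, 517, and 508 RPM in Un presort, at -0.62 ± 0.38.

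*ASG7* encodes an a-specific protein that dampens signalling by the G protein βγ subunits in new zygotes. *asg7*Δ had 0.381, 0, and 3.30 RPM in the In Gfp- pool, against 74.7, 93.4, and 87.7 RPM in In presort. In Un Gfp- it had 1.52, 1.48, and 0 RPM, against 78.4, 102, and 112 RPM in Un presort. The scaled replicates did not overlap in either culture, and the log2 fold changes of -1.60 ± 0.68 in the In Gfp- pool and -0.74 ± 0.57 in Un Gfp- (SE) missed the edgeR threshold (adjusted p = 0.0894 and 0.353).

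Of the remaining pheromone-regulated genes, *PRM4* encodes a predicted membrane protein. *prm4*Δ had 0 UPTAG reads in all 6 sorted libraries, against 253, 107, and 31 in the Un presort replicates (391 together). In presort replicates had 324, 115, and 23 (462 together). Its DNTAG had 6, 5, and 3 reads in Un Gfp-, against 189, 51, and 135 in Un presort, and 13, 0, and 1 reads in the In Gfp- pool, against 474, 418, and 19 in In presort. Its UPTAG share was at least 57.4-fold lower in Un Gfp- and at least 180-fold lower in the In Gfp- pool, where the median mutant was 51.6-fold and 208.5-fold lower. Among mutants with at least as many presort UPTAG reads, 41 of 2277 (1.80%) had 0 in Un Gfp- and 205 of 2276 (9.01%) had 0 in the In Gfp- pool. With both tags summed it was at 0.21 ± 0.57 in Un Gfp- and -0.40 ± 0.58 in the In Gfp- pool (SE), and neither was called. *prm10*Δ had 13.0, 2.97, and 83.1 RPM in Un Gfp-, against 879, 859, and 854 RPM in Un presort, at -0.79 ± 0.50. In the In Gfp- pool it had 3.58, 1.47, and 52.8 RPM, against 892, 825, and 878 RPM in In presort, at -1.22 ± 0.65. Without In Gfp- replicate 3, *prm10*Δ was at -1.84 and called lower (adjusted p = 0.0382, between 0.00376 and 0.614 over 16 settings). *prm7*Δ was at -0.83 ± 0.49 in Un Gfp- and -0.61 ± 0.62 in the In Gfp- pool. Without Un Gfp- replicate 3, *prm7*Δ was at -1.33 and called lower (adjusted p = 0.00756, between 0.00483 and 0.744 over 16 settings). The 0.00483 came from library totals, where 3199 of 3414 mutants were called lower.

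The adhesion mutants that could be tested were not called. *AGA2* encodes the binding subunit of a-agglutinin. *aga2*Δ averaged 68.3 ± 13.9 RPM in Un Gfp- and 2342 ± 307 RPM in Un presort (SD, n = 3 each), with a log2 fold change of -0.16 ± 0.50 (SE). In the induced culture it had 18.0, 14.7, and 340 RPM in the In Gfp- pool, against 2787, 1591, and 2345 RPM in In presort, at 0.16 ± 0.70. *FIG2* encodes a cell wall adhesin induced by pheromone. *fig2*Δ, read through DNTAG alone, was at -0.78 ± 0.60 in Un Gfp- and -0.19 ± 0.74 in the In Gfp- pool.

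Where sorted and presort replicates were set side by side after TMM scaling, 3 members (*kar5*Δ, *prm2*Δ, and *prm5*Δ) were higher without overlap in Un Gfp-, against 13.8% of all mutants tested, and 4 (*fus2*Δ, *asg7*Δ, *prm8*Δ, and *prm10*Δ) were lower, against 31%. In the In Gfp- pool 2 members (*prm2*Δ and *prm5*Δ) were higher without overlap, against 13.1%, and 6 (*fus2*Δ, *asg7*Δ, *prm3*Δ, *prm4*Δ, *prm6*Δ, and *prm8*Δ) were lower, against 35.1%.

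With all replicates, no member was called in a comparison of induced with uninduced cultures. Before sorting, log2 fold changes of In presort over Un presort ran between -0.58 for *prm9*Δ and 0.22 for *prm2*Δ, and 0 of 3412 mutants (0%) were called by edgeR, where 34 had an unadjusted p under 0.05. DESeq2 also called 0. The difference between the induced and the uninduced enrichment was called for 0 of 3412 mutants (0%), where 343 had an unadjusted p under 0.05, 0 of them members, and DESeq2 called 67, 0 of them members. It was 0.22 ± 0.86 for *prm2*Δ and 0.84 ± 0.93 for *prm5*Δ (SE), so their enrichment with α-factor could not be told from that without. Set directly against each other, In Gfp- and Un Gfp- differed in 5 of 3385 mutants (0.148%), 0 of them members. Without replicate 3, 43 mutants were called, and the 1 member among them was *kch1*Δ at -4.0 (adjusted p = 3.00e-08, between that value and 1.00 over 16 alternative settings). For *prm2*Δ this log2 fold change was 0.09 ± 0.84 and for *prm5*Δ 0.45 ± 0.95.

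Among 23 other genes of conjugation, 15 deletion mutants were tested in the uninduced and 16 in the induced culture. In Un Gfp- 1 was called higher, *mfa1*Δ, which lacks a gene for a-factor, at 9.21 ± 0.83 (SE, edgeR, adjusted p = 0.000409). In the In Gfp- pool 2 were, *mfa1*Δ at 9.25 ± 1.09 (adjusted p = 1.18e-05) and *ste2*Δ, which lacks the α-factor receptor, at 2.15 ± 0.49 (adjusted p = 0.00403). In the uninduced culture *ste2*Δ was at 0.69 ± 0.48 and was not called. *mfa2*Δ, which lacks the other a-factor gene, was at -1.79 ± 0.75 in Un Gfp- and -1.96 ± 0.92 in the In Gfp- pool. It was called in neither (edgeR, adjusted p = 0.116 in both). Enrichment alone does not show a loss of reporter, and the reporter of *mfa1*Δ was not tested singly here. *fus1*Δ, which lacks the gene whose promoter drives the reporter, was at -0.80 ± 0.54 in Un Gfp- and -0.63 ± 0.56 in the In Gfp- pool. The share called higher was thus 6.67% in Un Gfp- and 12.5% in the In Gfp- pool, not above the 12.2% and 15.2% of all mutants tested. None of these genes was called lower, against 5.27% and 10.1% of all mutants tested. Their median log2 fold change was -0.80 in Un Gfp- and -0.89 in the In Gfp- pool, beside -0.54 and -0.69 for all mutants tested.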

How the data were processed

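For Bar-Seq, the authors aligned barcode reads with Bowtie2 to the known UPTAG and DNTAG sequences and deposited read counts per deletion mutant and tag, without normalization. By the match of column names to the sample labels, 24 columns entered here and the other 24 did not. The reads of both tags of a replicate were summed. Mutants averaging 50 or more presort reads were tested with edgeR 4.0.16 in R 4.3.3 (TMM normalization, two-sided quasi-likelihood test, Benjamini-Hochberg adjustment over all mutants tested, threshold 0.05), within the 2 groups compared or, for the difference of the induced and the uninduced enrichment, over 12 libraries. DESeq2 1.42.0, library totals, other read minimums, each tag alone, and left-out replicates were tried as alternatives. Fits were also run on simulated data with equal numbers of raised and lowered mutants. Those data lacked the large shift of the sorted pools, so they are no check of the scaling there. Other steps used Python 3.11.15 and pandas 2.3.3. Gene names came from an R64 gene table, which named 5651 of 6128 mutants, and no coordinates were taken from it. The PCR carried no molecular identifiers, and bounds from a floor of 3 reads cover counting error only. Every member called in a comparison, or whose sorted and presort replicates did not overlap, is given by library, and *kch1*Δ, *aga2*Δ in the induced culture, and the tags of *prm4*Δ were added after their values were seen. The members and lists were chosen with earlier results of these data known.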

Additional observations from a re-analysis of the deposited data

How the results depend on the processing

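*prm5*Δ was called higher in 13 of 16 alternative settings in Un Gfp- and 15 of 16 in In Gfp-, and *prm2*Δ in 12 of 15 and 13 of 15. With replicates left out, *prm5*Δ lay between 5.31 and 6.19 in Un Gfp- and between 5.89 and 6.90 in In Gfp-, and *prm2*Δ between 5.61 and 6.72 and between 5.14 and 6.88. Without replicate 1, or without replicate 2, 0 of 3414 mutants were called in Un Gfp-, so both lost the call there. Without replicate 3, fits of the same size called 541 higher and 186 lower, and the cause was not tested.

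Scaled by library totals, which moves the median mutant to -5.32 and -6.17, 1 member was called higher and 14 lower in Un Gfp- (116 and 3199 of all mutants), and 0 and 14 in In Gfp- (119 and 3330). *prm5*Δ then had 0.55 and 0.64 (adjusted p = 0.310 and 0.291 in edgeR) and lost both calls, and *prm2*Δ kept the one at 1.26 in Un Gfp- and lost the other at 0.69 (adjusted p = 0.213). Uncalled members above 0 turned negative with it: *kar5*Δ -3.96, *kch1*Δ -4.11, and *prm4*Δ -4.87 in Un Gfp-, and *aga2*Δ -4.21, *kch1*Δ -3.96, and *prm1*Δ -4.79 in In Gfp-. UPTAG alone gave 1 higher and 2 lower members in Un Gfp-, 1 higher and 8 lower in In Gfp- with 1610 mutants lower (median -2.40), and reversed *prm2*Δ (-7.24 and -2.09), *prm4*Δ (-8.98 in Un Gfp-), and *prm1*Δ (-1.26 in In Gfp-); values of strains at 0 reads depend on the prior count. DNTAG alone called 576 mutants lower in In Gfp-. A presort mean of at least 200 left out *prm2*Δ, leaving 1 member higher in each pool, and 1 lower in In Gfp- (115 mutants lower in Un Gfp-). DESeq2 called 317 mutants lower in Un Gfp- and 3 members higher, *kar5*Δ being the added one. Calls for the difference of the enrichments numbered 12 with library totals, 67 with DESeq2, 15 with no read minimum, 5 with the minimum of 200, 330 with UPTAG, and 11 with DNTAG, and for In Gfp- against Un Gfp- directly 2 with DESeq2, 3 with the minimum of 200, and 1 with DNTAG. The cause of these shifts was not tested.

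The labels do not say that replicate numbers pair samples. The paper describes repeats of the experiment, so same-numbered libraries may share a culture. Correlations of deviations between same-numbered libraries ran between -0.102 and 0.287 in the sorted comparisons. Between In presort and Un presort they were 0.575, -0.635, and -0.674 for replicates 1 to 3. With the replicate block, 2 members stayed higher in both pools, 98 mutants were lower in Un Gfp-, 316 higher and 12 lower in In Gfp- with 1 member lower, and 48 were called between the sorted pools directly, 1 of them *kch1*Δ at -2.35.

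Over fits that left out replicates, members called higher numbered 0 to 3 in Un Gfp- and lower 0 to 1, and lower in In Gfp- 0 to 4. All mutants called numbered 0 to 575 higher and 0 to 366 lower in Un Gfp-, and 198 to 600 higher and 0 to 405 lower in In Gfp-. Without replicate 3, or without In Gfp- replicate 3, *kch1*Δ reversed in In Gfp- to -2.40 and -2.32; its values over all left-out replicates ran between -2.40 and 0.88. The difference of the enrichments gave 0 to 1 members and 0 to 11 mutants, and the sorted pools directly 0 to 1 members and 0 to 43 mutants. In the shallowest sorted libraries an ordinary mutant had few reads, which limits how far below others a strain could be seen.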
